A study of Mus musculus with 16 samples.

Results

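The contractile genes of smooth muscle were followed cell by cell in single-cell RNA sequencing of whole mouse testes at postnatal day 2 (P2). The 10 genes *Acta2*, *Tagln*, *Myh11*, *Actg2*, *Cnn1*, *Des*, *Myl9*, *Tpm2*, *Smtn* and *Lmod1* were taken by symbol from the 30451 genes counted, and all 10 were detected in both genotypes. The study compared wild type mice with mice in which floxed *Ddx5*, an RNA helicase gene, is deleted by *Mvh*-Cre. *Mvh* is transcribed in germ cells, whereas the cells described here are mostly somatic, and the state of the *Ddx5* alleles in them was not tested. Of the 16 labelled samples 8 belonged to each genotype, wild type in lanes 2 to 3 and knockout in lanes 3 to 4, but the barcodes carry no sample number, so each genotype counts as 1 library and genotype cannot be told apart from library or lane. Neither the number of animals nor their pooling is given in the sources used here.

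The barcode suffix taken as wild type held 6763 barcodes and the other 5423. Barcodes were kept from 2000 genes upwards where no more than 10% of the unique molecular identifiers (UMIs, the molecules counted) were mitochondrial, 6329 and 4950 cells with 82916872 and 66208479 UMIs, a median of 11170 and 11668.5 per cell; 12 barcode sequences occurred in both libraries. Scrublet called 284 and 296 of the cells doublets. GFP had 488 and 22 UMIs and CRE 0 and 20; an *Oct4*-GFP transgene that marks germ cells was in use in the study, and the labels give no GFP allele. In germ cell barcodes the level of the targeted gene was not lower under the knockout label. *Ddx5* stood at 1237 CPM (UMIs per 1000000 UMIs) over 67 wild type cells and 1842 CPM over 8 cells of the other library. That library is therefore named the library labelled *Ddx5* knockout. Whether these counts register the deletion was not tested. The study itself reported *Ddx5* mRNA strongly decreased by qRT-PCR of single *Oct4*-GFP-positive cells from knockout testes. The CRE UMIs, on the other hand, all lay in the library with the knockout label. Germ cells were 1.06% (0.821 to 1.34%) of wild type cells and 0.162% (0.0698 to 0.318%) of the cells with the knockout label. Where 2 values stand side by side below, wild type comes first. With 1 library a genotype there is no replicate error and no test; the 95% intervals, given in parentheses, are exact binomial for shares of cells, exact Poisson for levels and exact conditional binomial for ratios, and cover counting error only.

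Smooth muscle shortens when myosin II filaments pull on actin filaments, after phosphorylation of the regulatory light chain. In the testis the contractile apparatus is best known from peritubular myoid cells, flat cells around the seminiferous tubules whose contractions move sperm and fluid, and from the muscle of vessel walls. *Acta2* and *Actg2* encode the actins of smooth muscle, *Myh11* its myosin heavy chain and *Myl9* a regulatory light chain. *Tpm2*, *Tagln*, *Cnn1*, *Smtn* and *Lmod1* encode proteins of the thin filament, namely beta-tropomyosin, transgelin, calponin, smoothelin and leiomodin. *Des* encodes desmin, an intermediate filament protein found in all kinds of muscle. In GENCODE vM21 on GRCm38 the genes lie apart from each other, *Acta2* at chr19:34241090-34255590, *Actg2* at chr6:83512905-83536265, *Myh11* at chr16:14194535-14291372, *Myl9* at chr2:156775420-156781658, *Tpm2* at chr4:43514711-43523765, *Tagln* at chr9:45929619-45936058, *Cnn1* at chr9:22099216-22109630, *Smtn* at chr11:3517523-3540612, *Lmod1* at chr1:135324807-135368065 and *Des* at chr1:75360329-75368579. *Tagln*, *Smtn*, *Lmod1* and *Des* overlap genes on the opposite strand. Many of these genes are textbook targets of serum response factor, which binds the CArG box.

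Promoter windows from 250 bases before to 50 bases after the start site were found for 7 of the 10 genes in RefSeq sequence of GRCm38.p6. An exact CArG box occurred in 1 of the 7 windows, against 1.63% of all 32851 mouse windows, and a CArG box with at most 1 base off in 3, against 21.1%, reading both strands. The other motifs searched were GGGCGG, in 5 of 7 windows and 35.7% of all, and TATAAA, in 0 of 7 and 13.6% of all. The windows of *Acta2*, *Myl9* and *Lmod1* are printed because they hold such letters, and those of *Tpm2* and *Des* as 2 of the 4 without them, *Cnn1* and *Smtn* being the others. Over stromal cells Pearson's r with *Acta2* was 0.66 and 0.68 for *Myl9* and 0.22 and 0.26 for *Lmod1*, which hold the letters. It was 0.54 and 0.51 for *Tpm2*, 0.22 and 0.21 for *Smtn*, 0.15 and 0.15 for *Cnn1* and -0.11 and -0.15 for *Des*, which do not, and nothing is drawn from so few genes. Capitals mark the CArG-like stretches, and all 5 sequences read 5′ to 3′ on the gene's strand. A match is a description of these letters and not a bound site.
*Acta2*, chr19:34255324-34255623, minus strand: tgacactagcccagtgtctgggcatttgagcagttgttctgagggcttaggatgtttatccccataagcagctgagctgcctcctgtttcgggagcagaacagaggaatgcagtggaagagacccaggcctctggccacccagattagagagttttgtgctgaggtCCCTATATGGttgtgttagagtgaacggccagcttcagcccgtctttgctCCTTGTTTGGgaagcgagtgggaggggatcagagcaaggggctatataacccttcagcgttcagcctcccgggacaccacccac
*Myl9*, chr2:156775214-156775513, plus strand: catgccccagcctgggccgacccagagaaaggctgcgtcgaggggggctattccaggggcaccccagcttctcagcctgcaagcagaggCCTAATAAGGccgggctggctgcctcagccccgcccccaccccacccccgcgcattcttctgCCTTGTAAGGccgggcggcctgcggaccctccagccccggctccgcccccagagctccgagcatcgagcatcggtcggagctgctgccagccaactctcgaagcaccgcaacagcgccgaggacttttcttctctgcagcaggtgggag
*Lmod1*, chr1:135324563-135324862, plus strand: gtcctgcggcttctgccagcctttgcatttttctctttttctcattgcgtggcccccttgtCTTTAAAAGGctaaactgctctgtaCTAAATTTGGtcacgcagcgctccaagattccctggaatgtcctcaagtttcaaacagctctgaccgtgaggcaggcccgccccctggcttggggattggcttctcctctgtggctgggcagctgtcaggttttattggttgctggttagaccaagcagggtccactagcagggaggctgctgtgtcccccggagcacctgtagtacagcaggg
*Tpm2*, chr4:43523505-43523804, minus strand: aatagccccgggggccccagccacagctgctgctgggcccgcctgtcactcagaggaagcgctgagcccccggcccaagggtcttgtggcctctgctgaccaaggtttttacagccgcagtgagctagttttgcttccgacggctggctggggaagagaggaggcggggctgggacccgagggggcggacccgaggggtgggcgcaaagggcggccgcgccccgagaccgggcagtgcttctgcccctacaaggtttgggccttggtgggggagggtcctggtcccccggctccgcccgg
*Des*, chr1:75360042-75360341, plus strand: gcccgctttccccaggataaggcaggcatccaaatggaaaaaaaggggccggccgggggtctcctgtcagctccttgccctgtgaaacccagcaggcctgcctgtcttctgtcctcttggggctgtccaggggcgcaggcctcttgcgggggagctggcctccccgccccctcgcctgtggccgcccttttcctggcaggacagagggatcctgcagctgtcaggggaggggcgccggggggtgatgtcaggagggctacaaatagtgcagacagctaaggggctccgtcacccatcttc

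Most cells held at least 1 of the 10 genes, and few held most of them. A gene counted as held where the cell had 1 UMI or more. No gene was held by 18.4% (1165 of 6329 cells, 17.5 to 19.4%) in wild type and 17.9% (885 of 4950 cells, 16.8 to 19%) in the library labelled *Ddx5* knockout. From 1 to 10 genes held, the wild type cells numbered 1058, 871, 927, 755, 603, 506, 321, 96, 23 and 4, and those of the other library 741, 703, 805, 662, 478, 351, 217, 85, 19 and 4. Beside the cells with none, a second and lower peak stood at 3 genes in both libraries, made up largely of stroma (defined below), and from there the numbers fell at every step. At least 7 genes were held by 7.02% (444 of 6329 cells, 6.4 to 7.67%) and by 6.57% (325 of 4950 cells, 5.89 to 7.29%), and all 10 by 4 cells of each library. Because a deeper cell shows more genes, each cell was also thinned to 5000 UMIs, which left out 97 and 68 shallower cells; at that depth 30.3% and 29.3% of cells held none and 2.02% and 1.76% held at least 7. The peak at 3 genes was not there at that depth, where cells with 0, 1, 2, 3 and 4 genes numbered 1889, 1041, 939, 802 and 624 in wild type, and 1432, 813, 792, 701 and 522 in the library labelled *Ddx5* knockout.

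**Figure D1:**
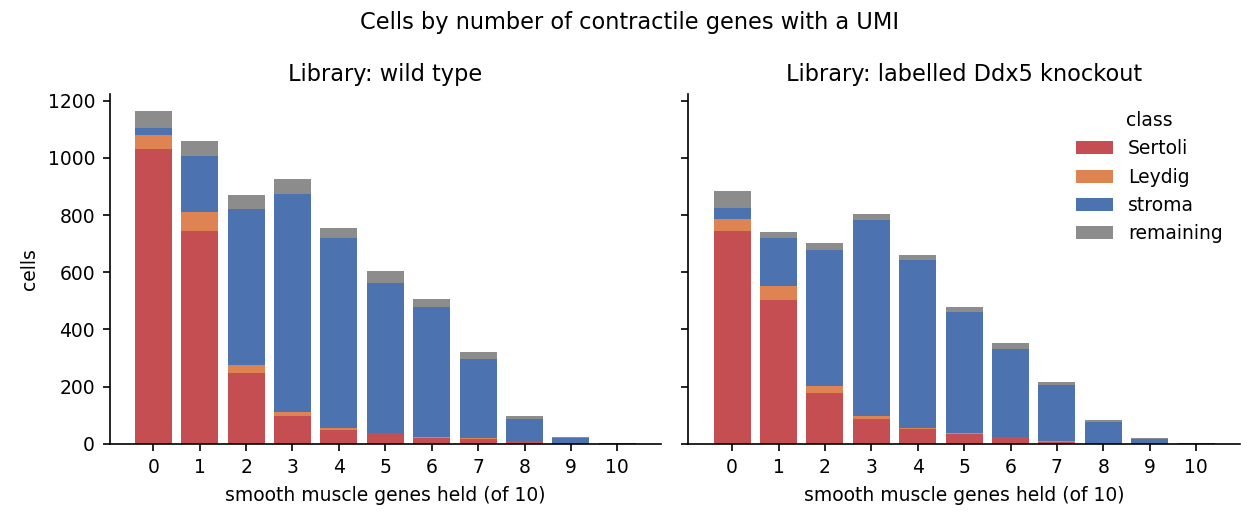
Number of cells (y axis) by the number of the 10 contractile genes held (x axis, 1 UMI or more), for each library and class of cells. Cells that held 7 or more were mostly stroma, and the Sertoli class was heaped at 0 to 2.

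The classes of cells were set by genes outside the list. Sertoli cells, the supporting cells of the tubule, had at least 3 UMIs of *Amh*; Leydig cells, the androgen-producing cells, had at least 20 UMIs of the steroidogenic *Cyp11a1*, *Cyp17a1* and *Hsd3b1* together; stroma had at least 1 UMI of *Pdgfra*, a receptor of mesenchymal cells, with at most 2 of *Amh*. They held 2256, 170 and 3546 wild type cells and 1635, 131 and 2976 of the other library, and 357 and 208 cells remained. The summed marker lists were each highest, of the 4 classes, in the one they name: the Sertoli list stood at 11877 and 10742.5 CPM in Sertoli cells and 148 and 124 in stroma, the stromal list at 10003 and 10215 CPM in stroma, and the Leydig list at 5384 and 5529 CPM in Leydig cells. The Leydig class also had 3634 and 2979 CPM of the Sertoli list, and 4133 and 3255 in its cells without *Pdgfra*, and the remaining cells that met no gate had 1945 and 1714.

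The cells that held at least 7 genes were mainly stroma, 84.7% and 88.9% of them. Within stroma they made up 10.6% (376 of 3546 cells, 9.61 to 11.7%) and 9.71% (289 of 2976 cells, 8.67 to 10.8%), while stromal cells without any of the 10 genes were rare, at 0.649% and 1.34%. At 5000 UMIs a cell those stromal shares were 3.05% and 2.64% with at least 7 genes and 2.76% and 4.14% with none. Of Sertoli cells 45.7% and 45.6% held none, and the median was 1 gene, although their median depth was 13711 and 15847 UMIs against 9805.5 and 9910 in stroma. Leydig cells held none in 30% and 30.5% of cases, and macrophages, told by their own markers, in 64.1% and 84.2%. At 5000 UMIs none was held by 71.1% and 71.4% of Sertoli cells, 57.1% and 59.2% of Leydig cells and 86.8% and 97.4% of macrophages, so stroma stood apart from them at equal depth as well.

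As cells held more of the genes, the genes appeared in nearly the same order in both libraries. The step of a gene was set as the smallest number of genes held at which, and at every number above it, at least 50% of the cells had it. *Myl9* and *Tpm2* came first, at step 1 and 2 in wild type and both at 2 in the library labelled *Ddx5* knockout, then *Des* at 3, *Acta2* at 4, *Tagln* at 5, *Myh11* and *Smtn* at 6, *Lmod1* at 8 and *Actg2* at 9 in both. *Cnn1* came at 9 in wild type but only at 10 in the library labelled *Ddx5* knockout. This is an order of detection, since a gene that yields more UMIs is seen in more cells. The number of genes held counts these same 10 genes, so part of any rise is set by the counting. The last steps rest on the 23 and 19 cells with 9 genes and the 4 cells with all 10 in each library. The rise was steep for the gene of the actin and its partners: *Acta2* was in 41.2% of wild type cells with 3 genes and 96.4% of those with 5, and *Tagln* in 27.5% of those with 4 and 86.6% of those with 6. In the library labelled *Ddx5* knockout the same 4 shares were 40.2%, 96%, 28.2% and 86.6%.

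*Des* climbed early and then stayed level up to 6 genes. It was held by 6.14% and 30.9% of wild type cells with 1 and 2 genes, and by 8.5% and 36.8% of such cells with the knockout label. It was held by 57.1%, 57.4%, 54.7% and 56.7% of wild type cells with 3, 4, 5 and 6 genes, and by 55%, 56%, 55.2% and 53.8% in the other library. At 7 and 8 genes it reached 77.9% and 91.7% in wild type and 71% and 81.2% with the knockout label. At 5000 UMIs a cell the shares at 3 to 6 genes were 44%, 39.3%, 33.9% and 48% in wild type, and 40.4%, 35.4%, 28.2% and 46.8% in the other library, so that its step moved from 3 to 7, the largest move of any of the 10 at that depth. Cells with 3 genes most often held *Des*, *Myl9* and *Tpm2*, in 369 of 927 cells (39.8%) and 332 of 805 (41.2%). The next combination had *Acta2* in the place of *Des*, in 26.4% and 28.4%.

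**Figure D2:**
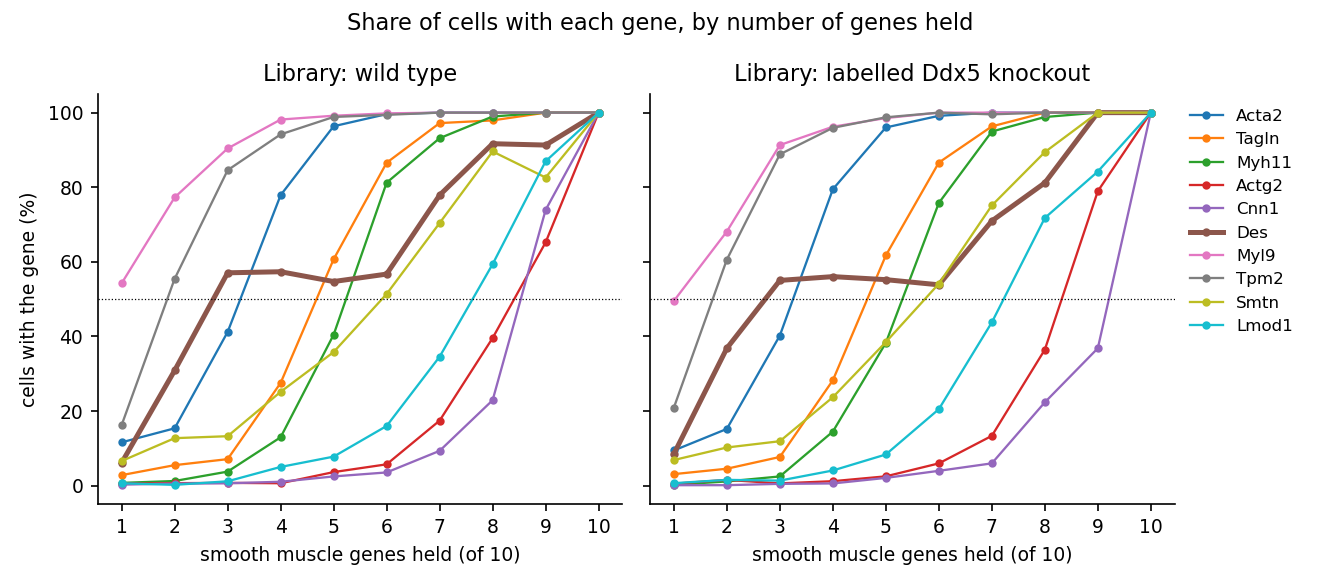
Share of cells holding each gene (y axis, percent) by the number of the 10 genes held (x axis), 1 line a gene, for each library. *Acta2*, *Tagln* and *Myh11* rise steeply between 3 and 7 genes, whereas *Des* runs level between 3 and 6.

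Within stroma *Tagln*, *Myl9*, *Myh11* and, less closely, *Tpm2* varied with *Acta2* from cell to cell. Of the stromal cells with *Tagln*, 92% and 90.7% also held *Acta2*, against 45.6% and 44.7% of those without. Of the cells with *Myh11*, 95.5% and 95.9% held *Acta2*. *Des* ran the other way: it was in 52.3% and 47.8% of cells with *Acta2* and in 60.9% and 60.8% of cells without it. Across stromal cells thinned to 5000 UMIs, Pearson's r of log2 values with *Acta2* was 0.70 and 0.68 for *Tagln*, 0.66 and 0.68 for *Myl9*, 0.64 and 0.62 for *Myh11* and 0.54 and 0.51 for *Tpm2*. It was 0.24 and 0.21 for *Actg2*, 0.15 and 0.15 for *Cnn1*, 0.22 and 0.21 for *Smtn* and 0.22 and 0.26 for *Lmod1*, which at this depth had a UMI in 15.1% of stromal cells or fewer, and -0.11 and -0.15 for *Des*. These cells share their library and depth, and the r values are descriptions.

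Stromal cells were then ranked by *Acta2* itself, at 5000 UMIs a cell. *Acta2* was absent from 1564 of 3480 wild type and 1375 of 2921 other cells and reached 40 UMIs or more in 59 and 30. The wild type bands of 0, 1, 2 to 4, 5 to 9, 10 to 19, 20 to 39 and at least 40 UMIs held 1564, 395, 407, 281, 432, 342 and 59 cells, with fewer cells at 5 to 9 UMIs than on either side. The other library had 250 cells at 5 to 9 UMIs, between 336 at 2 to 4 and 355 at 10 to 19; the bands differ in width.

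*Tagln* followed *Acta2* from 18.3 (15.4 to 21.5) CPM in stromal cells without *Acta2* to 2424 (2249 to 2608) in the highest band of wild type, and from 16.1 to 2100 CPM in the other library. *Myh11* went from 3.58 and 4.07 CPM to 536 and 507. *Des* stood at 139, 107, 88.9, 79.7, 80.1, 107 and 119 CPM over the 7 bands of wild type, and at 126, 106, 74.4, 59.2, 54.6, 86.8 and 60 CPM in the other library, lowest in the middle bands of both. It was therefore present in stromal cells with and without *Acta2*: at this depth 20.3% and 19.3% of stromal cells held *Des* alone of the pair, 37% and 37.6% *Acta2* alone, 18% and 15.3% both, and 24.7% and 27.8% neither. Over the same bands *Dcn*, the gene of the interstitial proteoglycan decorin, went from 3660 and 4036 CPM down to 542 and 547, and *Mgp*, the gene of matrix Gla protein, from 80.2 and 73.9 up to 2332 and 2440.

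**Figure D3:**
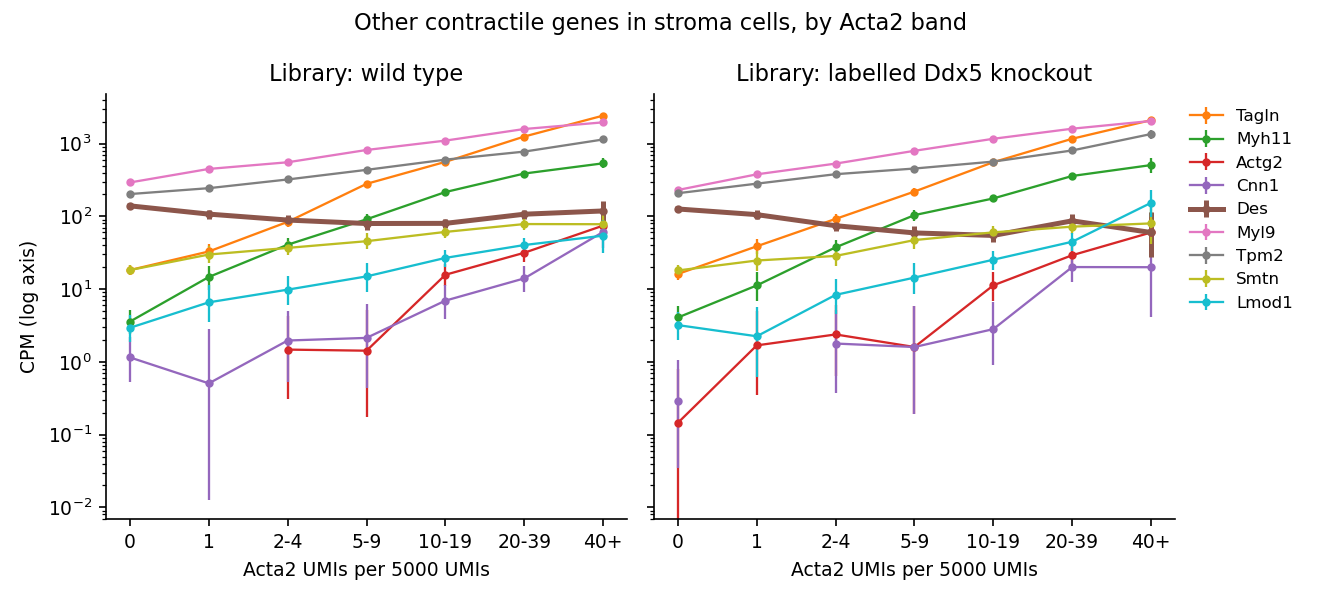
Level of the other 9 genes (y axis, CPM, log scale) in stromal cells grouped by their *Acta2* UMIs at 5000 UMIs a cell (x axis), for each library; bars are 95% Poisson intervals, and bands without a UMI have no point. *Des*, the thick line, stays between 54.6 and 139 CPM while *Tagln* and *Myh11* climb.

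All 10 genes were higher in stroma than in Sertoli cells by more than 2-fold in both libraries, as were 20.7% of the 18959 genes with at least 20 UMIs in these classes. *Acta2* stood at 1282 (1271 to 1293) CPM in stroma and 69.8 (67.2 to 72.6) in Sertoli cells of wild type, and at 1119 (1108 to 1131) and 59.7 (56.9 to 62.6) in the other library, a ratio of 18.4 (17.6 to 19.1) and 18.7 (17.9 to 19.7). *Actg2*, the enteric smooth muscle actin, stood at 6.45 and 5.3 CPM in stroma, 8.83 and 12.8 times the Sertoli level. For the motor the ratios were 18.1 and 21.3 for *Myh11*, with 94.7 and 72.7 CPM in stroma, and 10.3 and 10.2 for *Myl9*, with 659 and 587. The thin filament genes *Tagln*, *Cnn1*, *Tpm2* and *Lmod1* had ratios between 10.6 and 20.1, and stood in stroma at 288 and 236, 3.86 and 2.77, 370.4 and 370.4, and 12.7 and 12.1 CPM in that order. The *Cnn1* ratios, 13 (7.03 to 26.5) and 20.1 (7.57 to 75.2), rest on 11 and 4 Sertoli UMIs. *Des*, at 106 and 96 CPM in stroma, had ratios of 12.2 and 8.01. *Smtn*, with 37.3 and 35.8 CPM in stroma and 7.87 and 8.4 in Sertoli cells, had the smallest ratio of the 10 in both libraries, 4.73 (4.17 to 5.39) and 4.26 (3.71 to 4.91). The median ratio of all genes tested was 0.988 and 1.04.

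**Figure D4:**
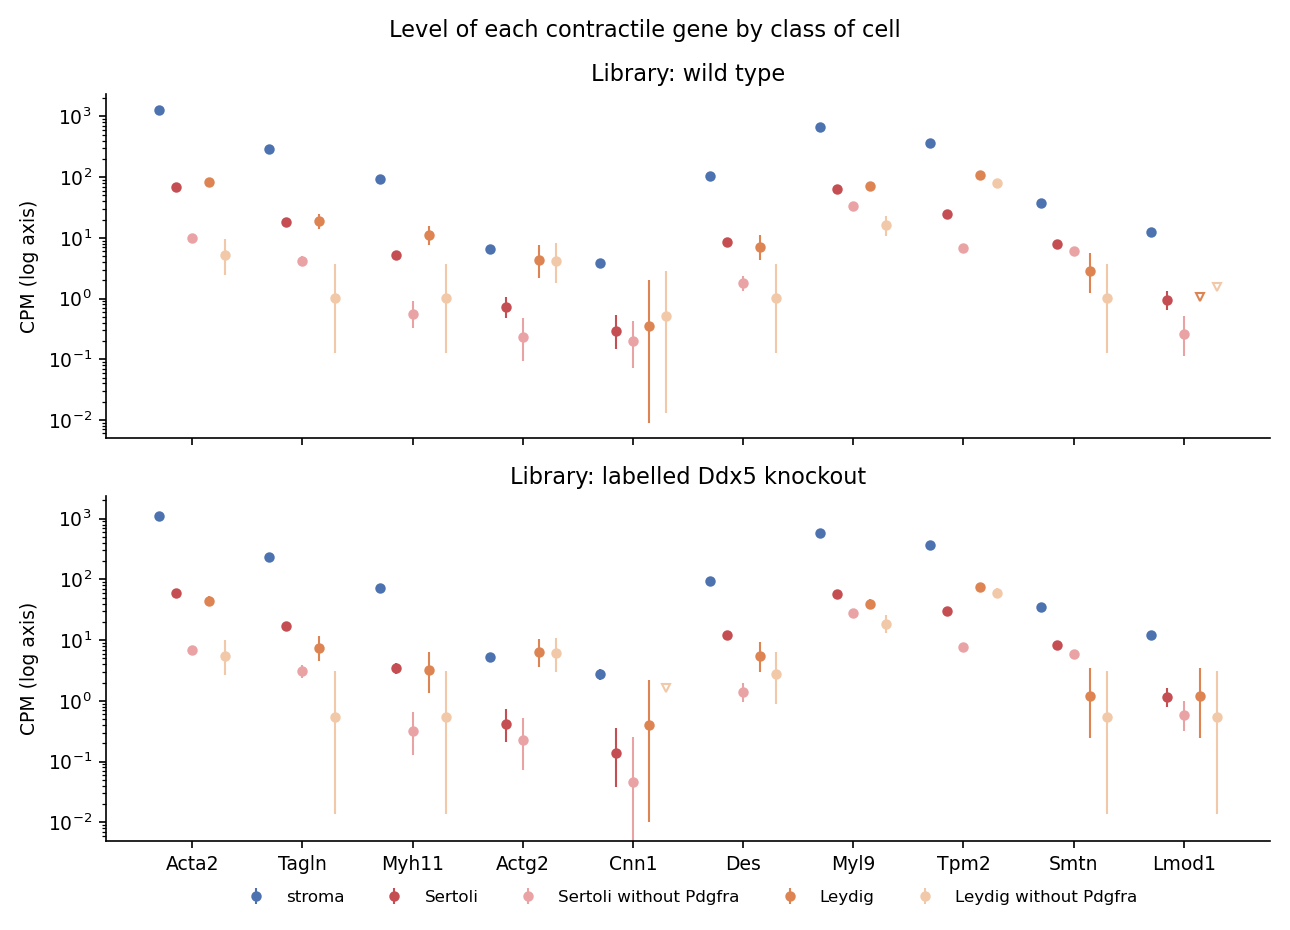
Level of each gene (x axis), as CPM (y axis, log scale), for each library. Colours are stroma, Sertoli cells, Sertoli cells without *Pdgfra*, Leydig cells and Leydig cells without *Pdgfra*. Bars are 95% Poisson intervals, and open triangles, drawn at the level of 3 UMIs, stand for 0 UMIs. Stroma lies above the Sertoli class for all 10 genes.

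Of the *Acta2* UMIs of the Sertoli class, 2275 of 2580 and 1576 of 1728 lay in cells that also carried *Pdgfra*. Such cells numbered 277 and 278, had a median of 22528 and 24561 UMIs, and 73.3% and 70.5% of them were called doublets. In the 1979 and 1357 Sertoli cells without a *Pdgfra* UMI, *Acta2* stood at 10.1 (9.0 to 11.3) and 6.91 (5.85 to 8.1) CPM, and the 10 genes together at 63.7 and 53.9 CPM against 200.4 and 190.2 in the whole class. The ratio of the summed genes between stroma and Sertoli cells, 14.3 and 13.3 with all cells, was then 44.9 and 47.1, and without called doublets 46.1 and 45.5. *Myl9* fell from 64.1 and 57.7 CPM in the whole class to 33.5 (31.5 to 35.7) and 27.8 (25.7 to 30.1) CPM. It had a UMI in 33.6% and 30.7% of the Sertoli cells without *Pdgfra*. *Smtn* went from 7.87 and 8.4 CPM to 6.1 and 5.82 CPM.

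The genes were also set against *Acta2* within each class. For each *Acta2* UMI there were 0.514 (0.506 to 0.522) and 0.524 (0.515 to 0.533) UMIs of *Myl9* in stroma and 3.32 (2.92 to 3.78) and 4.03 (3.37 to 4.84) in Sertoli cells without *Pdgfra*. For *Smtn* the values were 0.0291 and 0.032 in stroma against 0.603 and 0.842. Stroma had no single ratio, however: at 5000 UMIs a cell its cells without *Acta2* still had 292 and 230.4 CPM of *Myl9* and 18.3 and 18 CPM of *Smtn*. These ratios therefore do not set Sertoli transcripts apart from RNA of *Acta2*-poor stroma, and how much of any of the 10 genes in Sertoli cells is free RNA was not tested.

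In Leydig cells 2 of the 9 genes with enough UMIs, *Tpm2* and *Actg2*, exceeded the Sertoli level by more than 2-fold in both libraries, against 12.0% of all genes tested, and 1 of 9, *Smtn*, was lower by that much, against 18.6%. *Tpm2* stood at 108 (96.3 to 121) and 74 (63.7 to 85.4) CPM with a UMI in 60.6% and 61.1% of cells, 4.43 and 2.43 times the Sertoli level. *Actg2* stood at 4.3 (2.22 to 7.51) and 6.36 (3.64 to 10.3) CPM, intervals that include its level in stroma. The 126 and 102 Leydig cells without a *Pdgfra* UMI still had both, *Tpm2* at 79.8 and 60.5 CPM, against 6.69 and 7.64 in Sertoli cells without *Pdgfra*, a larger ratio than between the whole classes, and *Actg2* at 4.15 and 6.05 CPM from 8 and 11 UMIs, while *Acta2* stood there at 5.18 and 5.5 CPM against 83.5 and 44.9 in the whole class. *Smtn* was at 0.364 (0.156 to 0.727) and 0.142 (0.0291 to 0.42) times its Sertoli level in the whole class, from 8 and 3 UMIs. The wild type interval reaches past the 2-fold limit. The UMIs of *Tpm2* per *Acta2* UMI were 15.4 (8.15 to 32.8) and 11 (5.76 to 23.6) in the Leydig cells without *Pdgfra* and 0.289 and 0.331 in stroma, where cells without *Acta2* at 5000 UMIs still had 203 and 208 CPM of *Tpm2*; the part of free RNA in these Leydig values was not tested.

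The remaining cells exceeded the Sertoli level by more than 2-fold for 10 of 10 genes, against 21.9% of all genes tested, and were of several kinds. The 222 and 149 cells that met none of the gates carried *Acta2* at 2151 and 1572 CPM and *Tagln* at 647 and 426, both above stroma, and the summed 10 genes at 4299 and 3238 against 2860.5 and 2536 in stroma. Their stromal marker list stood at 7338 and 7187 CPM. Macrophages (39 and 38 cells) had 37.1 and 4.31 CPM of *Acta2*. The 67 wild type germ cells had 10.8 CPM of *Acta2* and 15.2 (10.6 to 21.3) CPM of *Smtn*, with a UMI in 37.3% of cells at a median depth of 33277 UMIs; the other library held 8 germ cells. Cells with pericyte markers could not be described apart, since that gate held 0 and 1 cells.

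The stromal cells that held at least 7 of the 10 genes, 376 and 289 cells, were set against the 3170 and 2687 other stromal cells for genes outside the list. Past 2-fold in both libraries, 2.63% of 16982 genes were higher and 6.65% lower; the 10 genes themselves chose the cells and are not counted. Median depth was 11776.5 and 12126 against 9589.5 and 9706 UMIs, and 6.38% and 4.5% against 1.1% and 1.56% were called doublets; the part of either in the ratios was not tested.

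Of 25 further smooth muscle genes 11 were higher and 1 lower, with a median ratio of 1.95 and 2.13 against 0.972 and 0.981 over all genes tested. They included *Tpm1*, alpha-tropomyosin, with 1727 against 642 CPM and 1798 against 604 CPM, and *Mylk*, the kinase of the regulatory light chain, with ratios of 2.45 (2.32 to 2.58) and 2.43 (2.29 to 2.57). *Synm*, an intermediate filament partner of desmin, was the lower one, at ratios of 0.242 (0.157 to 0.358) and 0.287 (0.186 to 0.425). Of 11 regulators 2 were higher, *Myocd*, the cofactor of serum response factor in muscle, at ratios of 4.06 (3.37 to 4.89) and 5.6 (4.5 to 6.94), and the Notch target *Heyl* at 3.17 and 3.44, and *Klf4*, which encodes a repressor of smooth muscle genes, was lower at 0.336 and 0.341. *Srf* itself had ratios of 1.62 and 1.97, below the 2-fold limit.

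Among 17 nonmuscle relatives of the 10 genes 2 were higher, *Cnn2*, a calponin, at 2.75 and 3.17 and *Myh9*, a nonmuscle myosin heavy chain, at 2.87 and 2.88, and *Vim*, vimentin, was lower at 0.427 and 0.368. Of 8 tested striated muscle genes 1, cardiac troponin *Tnnt2*, was higher, at 4.97 and 7.75, and 9 had too few UMIs. Of 12 matrix genes 3 were higher, *Mgp* at 3.26 and 3.84 and the basement membrane collagens *Col4a1* at 2.37 and 2.66 and *Col4a2* at 2.25 and 2.39, and *Postn*, periostin, was lower at 0.125 and 0.242. Of 16 signalling genes 2 were higher, the germ cell growth factor *Gdnf* at 2.65 and 3.9 and the endothelin receptor *Ednrb* at 5.89 and 6.76, and 4 lower, among them the chemokine *Cxcl12* at 0.428 and 0.396. Of the 10 interstitial stromal genes 7 were lower and 0 higher, *Dcn* at ratios of 0.315 and 0.267.

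Markers of the cells of blood vessel walls were also read in these cells, as their 10 genes together stood at 104 and 118 CPM against 91.8 and 92.3 in other stroma. The median ratio of the 7 tested genes of that list was 1.46 and 1.86, above that of all genes. *Rgs5*, the leading pericyte gene, had 1 and 0 UMIs there in all, and 1 of the 7, *Abcc9*, was past 2-fold, at 2.02 and 3.39. None of 8 proliferation genes passed 2-fold in both libraries, although *Mki67* was in 31.9% (27.2 to 36.9%) and 29.1% (23.9 to 34.7%) of the cells against 19.8% (18.5 to 21.3%) and 18.6% (17.1 to 20.1%) at 5000 UMIs a cell. The cells had been chosen before thinning, and over the *Acta2* bands, set at 1 depth, the share of cells with *Mki67* was 17.5%, 18.7%, 25.6%, 24.9%, 25.7%, 26% and 25.4% from the lowest to the highest band of wild type, and 15.2%, 21.1%, 23.2%, 28%, 22.5%, 25.1% and 20% in the library labelled *Ddx5* knockout. The share with *Mki67* was higher in every band with *Acta2* than in the band without, and had no steady order from 2 UMIs of *Acta2* upwards. For *Top2a* the wild type share was 19.8% without *Acta2*, but 17.5% at 1 UMI and 16.9% in the highest band. Its other wild type bands, and every band with *Acta2* in the other library, were above the band without. The level of *Mki67* was 143 and 105 CPM without *Acta2*, 179 and 214 at 5 to 9 UMIs and 142 and 120 in the highest band. Of 10 stress genes 1 was higher and 1 lower.

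**Figure D5:**
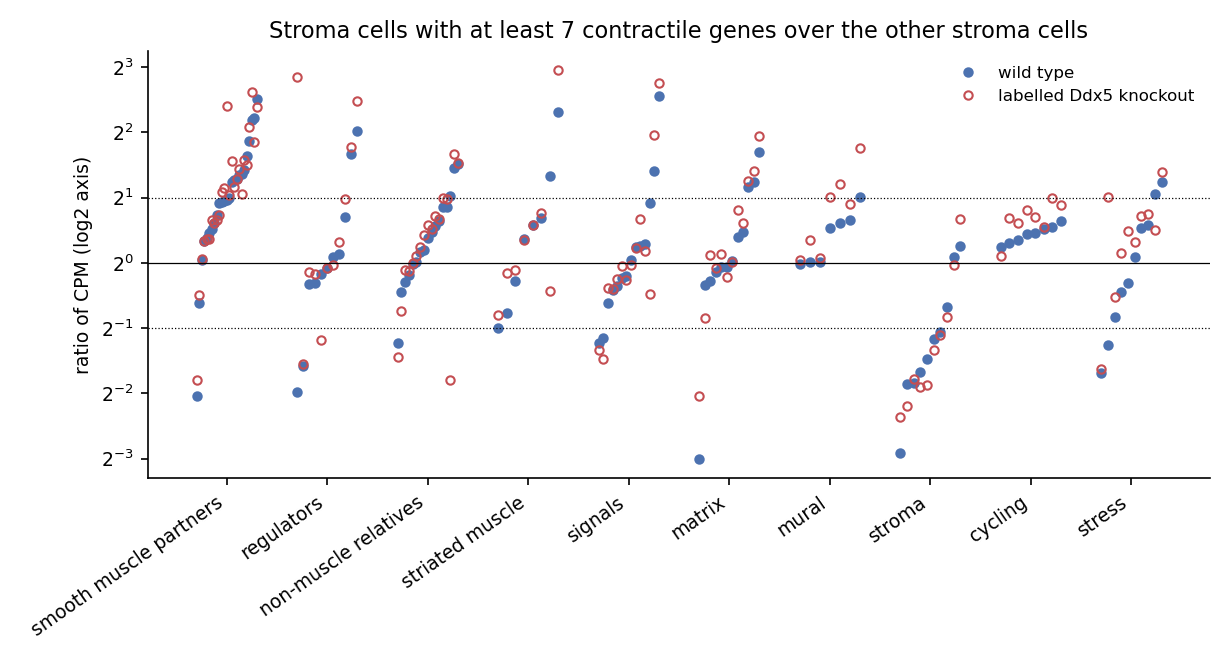
Ratio of CPM (y axis, log2) of each tested list gene between stromal cells holding at least 7 of the 10 genes and other stromal cells, by gene list (x axis), for wild type (filled) and the library labelled *Ddx5* knockout (open); dotted lines mark 2-fold. The plot has 122 genes, and 2 at 0 UMIs in a group are left out; smooth muscle partners lie mostly above the line of no difference and interstitial stromal genes mostly below it.

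Over the 3903 and 3184 cells outside the Sertoli and Leydig classes, the genes that varied most like the summed 10 were found among 10448 genes by Pearson's r of log2 values. *Mgp*, at r of 0.74 and 0.74, and *Tpm1*, at 0.74 and 0.75, led the 15. *Cnn2* at 0.69 and 0.67 and *Tpm4* at 0.54 and 0.54 are nonmuscle relatives of the listed genes, and *Col4a4* at 0.69 and 0.70, *Col4a1* at 0.64 and 0.60, *Col4a2* at 0.58 and 0.56 and *Col15a1* at 0.57 and 0.58 are collagens of basement membranes. The others were *Cdh11*, *Igfbp5*, *Tmem100*, *Fbxl22*, *Prr5*, *Spry1* and *Casq2*, with r between 0.52 and 0.65. *Acta2*, with r of 0.90 and 0.90, makes up much of the sum it is compared with. *Des* had r of 0.04 and -0.02, although its own UMIs are in the sum. At the other end stood *Inhba*, an inhibin and activin subunit, at -0.48 and -0.51, followed by *Dlk1* at -0.44 and -0.52, and by *Serpine2*, *Ebf1*, *Igf1* and *Osr1*. *Dcn*, named because it is described above, came after these at -0.37 and -0.43. These cells share their library, depth was scaled out only to UMIs per 10000, and no function is read from the likeness.

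Between the libraries no gene of the list passed 1.5-fold over all cells, 0 of 10, against 14.0% of all genes tested, and the ratio of the library labelled *Ddx5* knockout to wild type ran from 0.71 for *Cnn1* to 1.05 for *Tpm2*. Their sum stood at 1526 and 1405 CPM, a ratio of 0.921 (0.913 to 0.928). In stroma again 0 of 10 passed 1.5-fold, against 9.81%, but all 10 ratios were at or below 1 and the intervals of 6 lay below it. *Acta2* was at 0.873 (0.861 to 0.885), *Tagln* at 0.817 (0.794 to 0.842) and *Myh11* at 0.767 (0.728 to 0.808), while *Tpm2* was at 1.0 (0.976 to 1.02) and the median of all genes at 0.995. The pooled remaining cells were at 1.12 (1.09 to 1.16), but they held 67 and 8 deeply read germ cells, and their ungated cells had the summed levels of 4299 and 3238 CPM given above, the higher one in wild type. In the cells of any class that held at least 7 genes the summed ratio was 0.973 (0.96 to 0.988), and 0 of 10 genes and 9.63% of all genes passed 1.5-fold; the 10 genes chose these cells, so nothing is read from their count. Without replicate libraries, differences of this size cannot be told apart from differences between the libraries themselves.

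In Sertoli cells 2 of 9 genes were past 1.5-fold, against 12.4% of all genes: *Myh11* at 0.655 (0.509 to 0.839) and *Actg2* at 0.567 (0.262 to 1.16). Without the cells that carried *Pdgfra*, *Myh11* was at 0.565 (0.198 to 1.43) from 17 and 7 UMIs and *Actg2* at 0.98 (0.245 to 3.59) from 7 and 5, both intervals including 1. *Des* was at 1.38 (1.18 to 1.61) in the whole class, but at 0.788 (0.489 to 1.25) without the cells that also carried *Pdgfra*. In Leydig cells 4 of 7 genes were past 1.5-fold, all lower in the library labelled *Ddx5* knockout, against 11.5%: *Acta2* at 0.538 (0.426 to 0.677), *Tagln* at 0.398 (0.222 to 0.683), *Myh11* at 0.286 (0.114 to 0.637) and *Myl9* at 0.547 (0.426 to 0.698). Without the 44 and 29 Leydig cells that carried *Pdgfra*, *Acta2* was at 1.06 (0.396 to 2.84), *Myl9* at 1.16 (0.694 to 1.96) and the sum of the 10 genes at 0.87 (0.708 to 1.07). *Tpm2* was at 0.684 (0.566 to 0.823) in the whole class and at 0.757 (0.588 to 0.974) without those cells, from 154 and 110 UMIs. *Tagln* and *Myh11* had 2 and 1 UMIs each there, a ratio of 0.53 (0.00899 to 10.2), too few to read.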

How the data were processed

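Single-cell libraries of P2 whole testes were made with the Chromium Single Cell 3ʹ v3 kit after TrypLE dissociation. The authors deposited raw UMI counts per gene and barcode, which the submitters' processing notes link to Cell Ranger 3.1.0 and the build GRCm38; the notes also name Seurat 3.1.5. No values were normalized before deposit. No label pairs a barcode suffix with a genotype: suffixes were assigned from the cell numbers the study states, and the filter used here left 1 cell more in wild type, which has exactly 2000 genes, and the same number in the other library. UMIs were summed per library and class with Python 3.11.15, numpy 2.4.6, pandas 2.3.3 and scipy 1.17.1, Scrublet, run on each library in scanpy 1.11.5, called doublets that stayed in, and figures were drawn with matplotlib 3.10.9. CPM is UMIs per 1000000 UMIs of the cells summed. A gene entered a comparison with at least 20 UMIs in both groups of both libraries together. Calls between classes needed 2-fold in both libraries, calls between libraries 1.5-fold. Each cell counted in the first class it met, in the order Sertoli, Leydig, stroma. Genes outside the list were named by UMIs in the cells holding at least 7 members, at most 6 a list, or where a result turned on them; the 15 most alike by the lower r of the 2 libraries. The 10 genes, the gene lists, the classes and the comparisons were chosen with earlier results of these data known. Scripts were tested on simulated data. No column of per-sample values was left unused.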

Additional observations from a re-analysis of the deposited data

Results flagged for a closer look

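Barcodes left out by the filter on genes and mitochondrial UMIs, which enter no comparison above, also held the 10 genes, above the level that a count of 3 UMIs would give. The 434 wild type barcodes, at a median of 2329.5 UMIs, had 877 UMIs of the 10 genes, 651 CPM (609 to 696) against 2.23 CPM for 3 UMIs. The 473 barcodes of the library labelled *Ddx5* knockout, at a median of 2224 UMIs, had 1030, 763 CPM (717 to 811) against 2.22 CPM. Of these barcodes 45.9% and 41.4% held at least 1 of the 10 genes, and 0 in either library held 7 or more.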

How the results depend on the processing

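No paired analysis was possible because barcodes carry no library number, and leaving out a replicate was not possible for the same reason. Of 562 values recomputed under other settings 328 counted as the same and 234 as moved. A value counted as the same where it lay inside the counting interval of the main value. Steps of detection have no interval and were judged by how many of the 20 were unchanged. Only ratios to Sertoli cells could count as reversed, by crossing 1. All began above 2-fold, so nothing is read from the 0 that did. The 562 values are the shares of cells, class sums, ratios to Sertoli cells, ratios of the libraries for the summed genes and steps of detection. Ratios of the libraries for single genes within a class are not among them, and without cells carrying *Pdgfra* some crossed 1, among them *Des* in Sertoli cells from 1.38 to 0.788, and *Acta2* and *Myl9* in Leydig cells from 0.538 to 1.06 and from 0.547 to 1.16. All 398 ratios of single genes in stroma or remaining cells to Sertoli cells stayed above 2-fold, though 113 moved by over 1.5 times. The stroma to Sertoli ratio of the summed genes was 18.5 and 17.5 at 5000 UMIs a cell, 18.4 and 16.5 as a mean over cells, 14.7 in wild type outside ribosomal and mitochondrial genes, 46.1 and 45.5 without called doublets and 44.9 and 47.1 with Sertoli cells without a *Pdgfra* UMI, a setting chosen after seeing the data. The share of cells holding none was 30.3 and 29.3% at 5000 UMIs, 35.6 and 33.8% where holding took 2 UMIs, and 19.7% in the library labelled *Ddx5* knockout with cells of at least 1000 genes. The share holding at least 7 was 2.02 and 1.76% and 1.36 and 1.25% under the first 2 of these settings. The ratio of the libraries for the summed genes over all cells was 0.894 with at most 5% mitochondrial UMIs, 0.951 without called doublets, 0.898 at 5000 UMIs and 0.899 as a mean over cells. Of the 20 steps of detection, 10 genes in each library, 10 were unchanged at 5000 UMIs and 9 with 2 UMIs, and 18 and 16 moved by at most 1 step. *Des* moved from 3 to 7 under both. With 2 UMIs *Smtn* also moved from 6 to 9 and *Cnn1* from 10 to 8 in the library labelled *Ddx5* knockout. The labels tie no cell to an animal, and the depth of a cell limits how many of the 10 genes it can show.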

Other observations

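Genes that varied most like *Des* were looked up after its values were seen, over the same cells outside the Sertoli and Leydig classes. The leading ones were *Dpt*, dermatopontin, at r of 0.35 and 0.35, *Dcn* at 0.31 and 0.32, *Cxcl12* at 0.31 and 0.33, and the fibrillar collagens *Col3a1* at 0.31 and 0.31 and *Col1a1* at 0.32 and 0.30. All 5 are genes of interstitial or fibroblast-like cells, and *Dcn* and *Cxcl12* were also lower in the stromal cells with at least 7 of the 10 contractile genes.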
